A study of Mus musculus with 15 samples.

Results

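A set of 9 transcription regulators of meiotic and haploid male germ cells, Mybl1, Tcfl5, Brdt, Taf7l, Rfx2, Sox30, Crem, Fhl5 and Tbpl1, were followed in the testis of mice that lack a chromosome 18 locus of pachytene piRNA. The genes were chosen by name, as regulators of pachytene and round spermatid transcription, and all 9 were found among the 49585 GENCODE genes of the deposited tables. The series held 9 RNA-seq libraries of ribosome-depleted total RNA, 3 each from wild type (Chr18+/+), heterozygous (Chr18+/-) and homozygous (Chr18-/-) testis, and 6 small RNA libraries, 3 heterozygous and 3 homozygous; small RNA of wild type was not analysed here. All were labelled strain B6D2F1 and age postnatal day 28. The labels call the heterozygous mice controls as well and leave unsaid whether every library is another animal. The p-values therefore rest on library-to-library spread, which may be technical.

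Male germ cells switch transcription programme at the pachytene stage of meiosis and again as round spermatids form. MYBL1 (A-MYB) is a master activator of pachytene genes, including the long precursors of pachytene piRNAs, and the basic helix-loop-helix protein TCFL5 acts alongside it. BRDT, a testis-specific protein of the BET bromodomain family, reads acetylated histones. TAF7L and TBPL1 (TRF2) are germ cell versions of parts of the general transcription machinery, RFX2 binds X-box elements of ciliary and spermatid genes, and SOX30 is an HMG-box factor needed for spermatid development. CREM drives many haploid genes from cyclic AMP response elements with its LIM-only coactivator FHL5 (ACT).

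Of the 9 regulators, 4 differed between homozygous and wild type testis, beside 20.8% of all 20782 features called. The count fell to 0 without wild type library 3 or without homozygous library 2. Taf7l and Mybl1 were higher, by 32.5% and 25.6%, and Rfx2 and Sox30 were lower. Rfx2 fell by 20.3% and Sox30 fell by 15.9%. Tcfl5, Brdt, Crem, Fhl5 and Tbpl1 did not pass the test in any comparison. None of the 9 passed between homozygous and heterozygous testis.

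The promoters of 3 genes are shown because their genes are the members that passed and whose RefSeq start site coincides with the gene start in the files. Each run is the 250 bases before the start site, 5′ to 3′ on the strand of the gene, from RefSeq on GRCm38.p6. Capitals mark matches on either strand to the MYB core AACNG, the CRE half-site TGACG, the X-box half-site GTTGCC or the E-box CACGTG, and overlapping matches merge. The windows are chr17:56831009-56831258 for Rfx2 (minus strand), chr11:45980060-45980309 for Sox30 (plus strand) and chrX:134476491-134476740 for Taf7l (minus strand).
Rfx2: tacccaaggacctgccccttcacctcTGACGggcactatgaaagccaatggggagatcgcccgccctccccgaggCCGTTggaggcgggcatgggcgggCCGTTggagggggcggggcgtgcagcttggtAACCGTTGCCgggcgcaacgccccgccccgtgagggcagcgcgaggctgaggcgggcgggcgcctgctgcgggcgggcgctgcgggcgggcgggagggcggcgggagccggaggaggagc
Sox30: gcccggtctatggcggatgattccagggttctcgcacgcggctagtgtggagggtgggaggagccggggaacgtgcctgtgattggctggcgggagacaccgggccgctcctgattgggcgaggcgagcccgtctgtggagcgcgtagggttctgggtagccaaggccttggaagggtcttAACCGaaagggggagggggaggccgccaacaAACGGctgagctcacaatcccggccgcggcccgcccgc
Taf7l: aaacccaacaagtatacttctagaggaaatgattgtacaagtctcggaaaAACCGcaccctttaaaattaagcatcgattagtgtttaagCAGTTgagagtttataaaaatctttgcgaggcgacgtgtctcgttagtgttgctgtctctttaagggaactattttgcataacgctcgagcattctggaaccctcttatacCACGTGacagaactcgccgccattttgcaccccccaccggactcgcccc

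The Rfx2 window held 4 matches to the MYB core, 1 CRE half-site and 1 X-box half-site, the element bound by RFX proteins themselves. The X-box half-site and 2 of the MYB cores share letters in the longest capital run, which lies between -120 and -111 from the start site. At least 4 MYB cores were present in 7.03% of 32851 mouse promoter windows of the same length, and at least 1 in 74.2%. The X-box half-site was present in 10.4% of windows and the CRE half-site in 17.8%. The Sox30 and Taf7l windows each held 2 MYB cores, a number reached by 42.0% of windows, and Taf7l held 1 E-box, found in 6.02%. GC content was 76.0% for Rfx2, 68.0% for Sox30 and 44.8% for Taf7l, against a median of 52.4% over all windows. Of the other members, Tcfl5 had the most MYB core matches, 6, which 0.740% of windows reached, but its RefSeq start site lies apart from the gene start in the files. RefSeq windows were found for 7 of the 9 members, the others being Mybl1 and Crem. These matches describe letters only.

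Depth was 21684791 to 41513634 counted fragments per RNA-seq library and 939641 to 1861402 reads per small RNA library. Levels are given as CPM, a gene's count set against the TMM-scaled total of its library. Every pair of libraries within a group was further apart than counting noise, with a chi-square of 2.96 or more per degree of freedom in RNA-seq and 1.76 or more in small RNA. The germ cell and somatic marker lists of testis were detected, with 1 Leydig marker at 0 counts in every library. Summed markers of elongating spermatids ran from 15272 to 15910 CPM in wild type, 5001 to 12703 in heterozygous and 8386 to 11324 in homozygous libraries. Summed early meiotic prophase markers ran from 1570 to 1681, 2032 to 2574 and 2234 to 2510 CPM. Summed Leydig cell markers ran from 1032 to 1154, 459 to 604 and 422 to 575 CPM. The part of these shifts in the values of the 9 regulators was not tested. In whole testis, fewer cells of a type and less RNA per cell cannot be told apart.

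Mybl1 (chr1:9667415-9700209, minus strand, GRCm38) read 136, 123 and 135 CPM in the wild type libraries. It read 158, 142 and 180.1 CPM in the heterozygous and 156, 177 and 162 CPM in the homozygous libraries. All 6 libraries of the 2 mutant genotypes lay above all 3 wild type libraries. The share of all features with such a separation, here and for the members below, was not computed. Homozygous and wild type libraries alone did not overlap for 42.6% of all features. The homozygous mean was 165 ± 10.8 CPM (SD, n = 3) against 131 ± 7.30, a log2 fold change of 0.33 (SE 0.10, 95% interval 0.11 to 0.55, edgeR adjusted p = 0.0399). The heterozygous mean was 159.9 ± 19.3 CPM, with a log2 fold change of 0.28 against wild type that missed the threshold (edgeR adjusted p = 0.0607). It passed in 4 of 16 alternatives: with DESeq2 (adjusted p = 0.0424), without scaling (0.0165), at a mean of at least 1 CPM (0.0422) and without heterozygous library 2 (0.0281).

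Tcfl5 (chr2:180621956-180642708, minus strand) read 336, 344 and 361 CPM in wild type libraries. The mutant genotypes lay across the same range, with 338, 319.8 and 338 CPM in heterozygous and 361, 359 and 337 CPM in homozygous libraries. Its log2 fold change was 0.02 (95% interval -0.16 to 0.20, edgeR adjusted p = 0.868) in homozygous and -0.06 (-0.24 to 0.12, adjusted p = 0.615) in heterozygous against wild type testis. The 3 group means lay between 332 and 352 CPM.

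Brdt (chr5:107331159-107387058, plus strand) was the tightest member in wild type, at 226, 223 and 227 CPM, an SD of 1.01% of the mean. Heterozygous libraries read 212, 208 and 248 CPM and homozygous libraries 225, 236 and 246 CPM, so that heterozygous values lay on either side of the wild type range and homozygous values within or above it. The log2 fold change was 0.06 (95% interval -0.13 to 0.26, edgeR adjusted p = 0.649) in homozygous and -0.02 (-0.21 to 0.18, adjusted p = 0.911) in heterozygous testis.

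Taf7l (chrX:134460118-134476490, minus strand) is X-linked, and was the lowest of the 9 genes in CPM. It read 43.3, 39.2 and 41.2 CPM in wild type, 55.1, 43.9 and 54.7 in heterozygous and 52.5, 58.8 and 52.5 in homozygous libraries. All 6 mutant libraries lay above the wild type, the second heterozygous library by the smallest margin. The homozygous mean of 54.6 ± 3.61 CPM (SD, n = 3) against 41.2 ± 2.06 gave a log2 fold change of 0.41 (SE 0.10, 95% interval 0.18 to 0.63, edgeR adjusted p = 0.0181). The heterozygous mean of 51.2 ± 6.35 CPM gave 0.31 (SE 0.10, adjusted p = 0.0441).

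Rfx2 (chr17:56775897-56831008, minus strand) read 219, 181 and 198 CPM in wild type libraries. It read 143, 165 and 147 CPM in heterozygous and 169, 163 and 145 CPM in homozygous libraries, all 6 below all 3 wild type values. The homozygous mean was 159.0 ± 12.6 CPM (SD, n = 3) against 199.6 ± 19.1, a log2 fold change of -0.33 (SE 0.10, 95% interval -0.55 to -0.11, edgeR adjusted p = 0.0402). The heterozygous mean was 152 ± 11.7 CPM, a log2 fold change of -0.39 (SE 0.10, adjusted p = 0.0177). Rfx2 was the member with the lowest adjusted p in heterozygous testis, and Taf7l in homozygous testis.

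Sox30 (chr11:45980310-46017994, plus strand) read 66.6, 71.3 and 66.3 CPM in wild type libraries. It read 55.3, 61.6 and 59.2 CPM in heterozygous and 59.6, 57.1 and 55.1 CPM in homozygous libraries, and again all 6 lay below the wild type. The homozygous mean was 57.3 ± 2.29 CPM (SD, n = 3) against 68.1 ± 2.80, a log2 fold change of -0.25 (SE 0.08, 95% interval -0.43 to -0.07, edgeR adjusted p = 0.0494). The heterozygous log2 fold change of -0.21 missed the threshold (adjusted p = 0.0761).

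Crem (chr18:3266048-3337748, minus strand) produces activator and repressor isoforms from different promoters and exons, which these counts per gene do not resolve. It read 222, 229.9 and 237 CPM in wild type, 231, 234 and 272 in heterozygous and 239, 232 and 264 in homozygous libraries. Its log2 fold change was 0.09 in homozygous (95% interval -0.11 to 0.30, edgeR adjusted p = 0.512) and 0.10 in heterozygous testis (-0.11 to 0.30, adjusted p = 0.487). Of the 6 mutant libraries, 3 exceeded every wild type library and none lay below.

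Fhl5 (chr4:25199908-25242876, minus strand) was the member with the widest intervals. It read 184, 231 and 232 CPM in wild type, 173, 222 and 235 in heterozygous and 202, 217 and 236 in homozygous libraries, and the 3 groups overlapped. Its log2 fold change was 0.02 in homozygous (95% interval -0.26 to 0.30, edgeR adjusted p = 0.928) and -0.04 in heterozygous testis (-0.32 to 0.24, adjusted p = 0.867). The annotated gene Gm11906 covers all of Fhl5 on the opposite strand, where 0 to 4 fragments were counted per library.

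Tbpl1 (chr10:22703879-22731938, minus strand) read 407, 329 and 333 CPM in wild type libraries, where the first library stood above the rest. It read 312, 313 and 349.9 CPM in heterozygous and 363, 339 and 325 CPM in homozygous libraries. The log2 fold change was -0.06 in homozygous (95% interval -0.28 to 0.17, edgeR adjusted p = 0.732) and -0.13 in heterozygous testis (-0.36 to 0.09, adjusted p = 0.380).

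**Figure D1:**
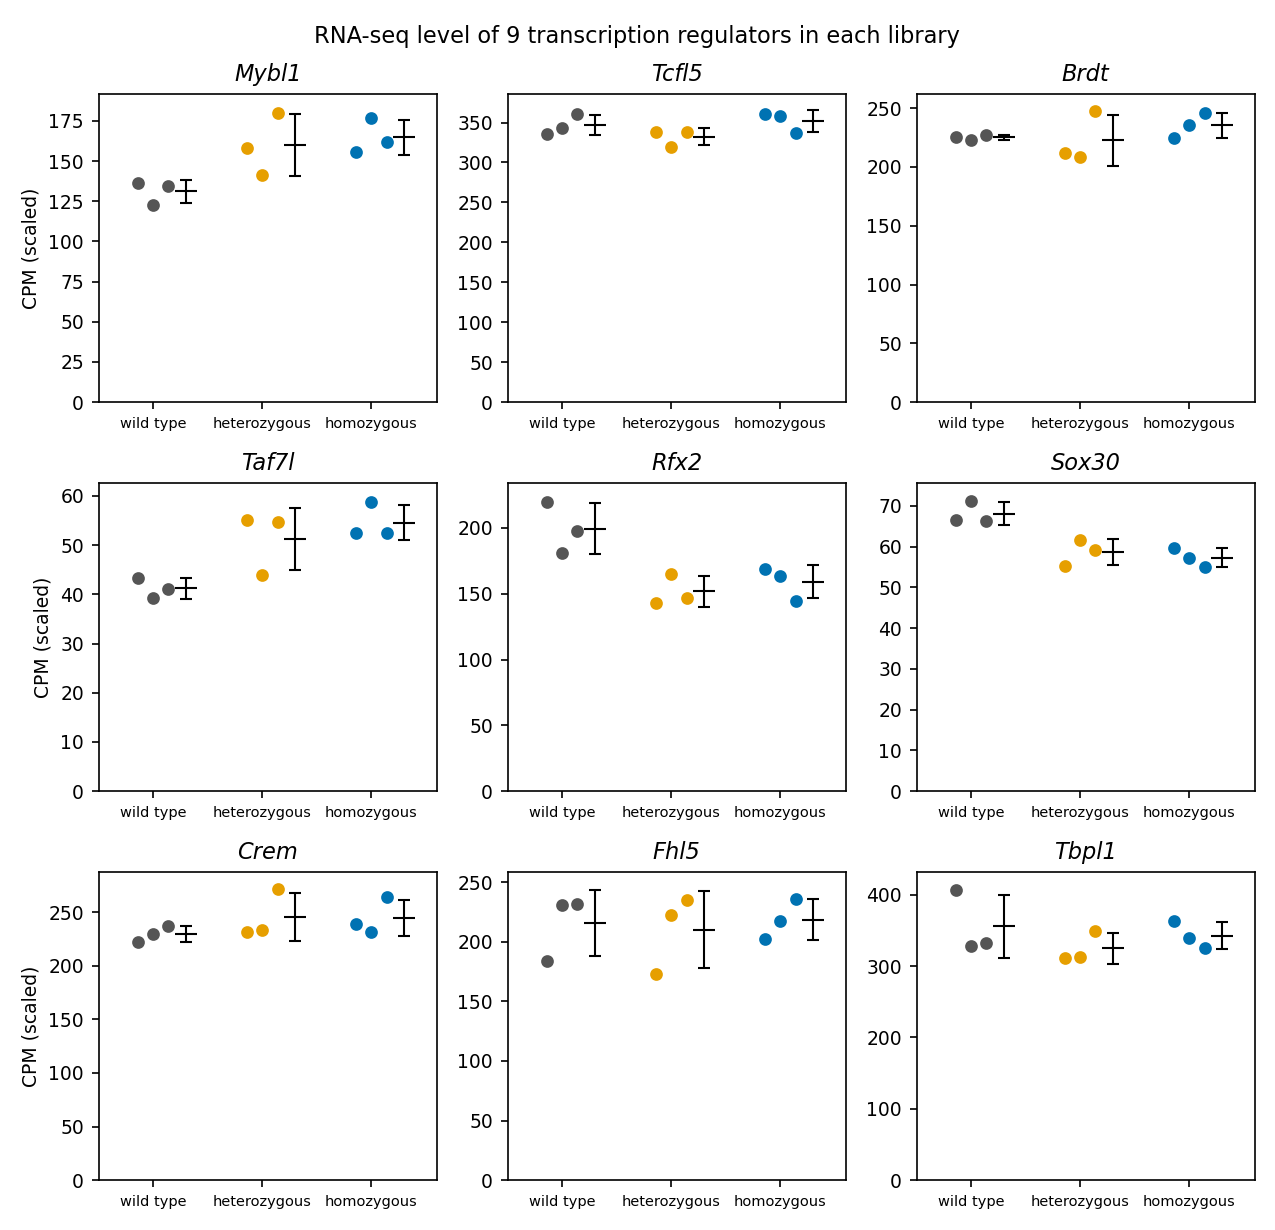
RNA-seq level in CPM of each regulator in each of the 9 libraries (dots), grouped by genotype, with the mean and SD of each group (black, n = 3). Mybl1 and Taf7l dots of both mutant genotypes sit above all wild type dots, Rfx2 and Sox30 dots sit below, and the other 5 genes overlap. Over all features, homozygous and wild type libraries did not overlap for 42.6%.

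Against the background of the whole table, the 4 calls among the 9 regulators in homozygous testis stand beside 20.8% of 20782 features called, 9.68% higher and 11.1% lower. Groups did not overlap for the 4 called members, against 42.6% of all features. In heterozygous testis 2 of the 9 were called, beside 23.9% of features, 11.1% higher and 12.9% lower, and 4 members had groups that did not overlap, against 42.1%. The median log2 fold change of the 9 was 0.02 in homozygous and -0.04 in heterozygous testis, beside -0.01 and -0.00 over all features. Both comparisons use the same 3 wild type libraries, so they are not independent of each other.

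The calls were close to the threshold and 1 library could end them. Taf7l in homozygous testis lost its call without wild type library 2 (edgeR adjusted p = 0.0694), wild type library 3 (0.0541) or homozygous library 2 (0.0804). Mybl1 lost it without any one of the wild type or homozygous libraries (adjusted p 0.0511 to 0.151). Rfx2 lost it without wild type library 1 (0.117), wild type library 3 (0.0851), homozygous library 2 (0.0961) or homozygous library 3 (0.154). Rfx2 also lost it without scaling (0.0597) and with both strands summed (0.0519). The Sox30 call was kept in 2 of 16 alternatives, with DESeq2 and without heterozygous library 1, a library outside the comparison. Sox30 lost it without any one of the wild type or homozygous libraries (0.0637 to 0.164). In heterozygous testis Rfx2 lost its call without wild type library 1 (0.0596) or heterozygous library 3 (0.0589), and Taf7l lost it in 9 of 16 alternatives. In all 16 alternatives Mybl1 and Taf7l stayed higher and Rfx2 and Sox30 stayed lower in both comparisons. For these genes every mutant library lay on 1 side of all wild type libraries. Refitting the same counts or leaving out 1 library could therefore hardly change the direction.

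Between homozygous and heterozygous testis, the comparison that separates loss of both copies of the locus from loss of 1, the edgeR test called 0 of the 9 regulators. None reached an unadjusted p under 0.05, and DESeq2 called 0. Log2 fold changes ran from -0.04 for Sox30 to 0.09 for Taf7l, and 7 of the 9 were positive. The widest 95% interval, that of Fhl5, ran from -0.22 to 0.34, and that of Taf7l from -0.13 to 0.31. No member had groups that did not overlap, against 8.31% of features, and 0.0289% of features were called in this comparison.

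**Figure D2:**
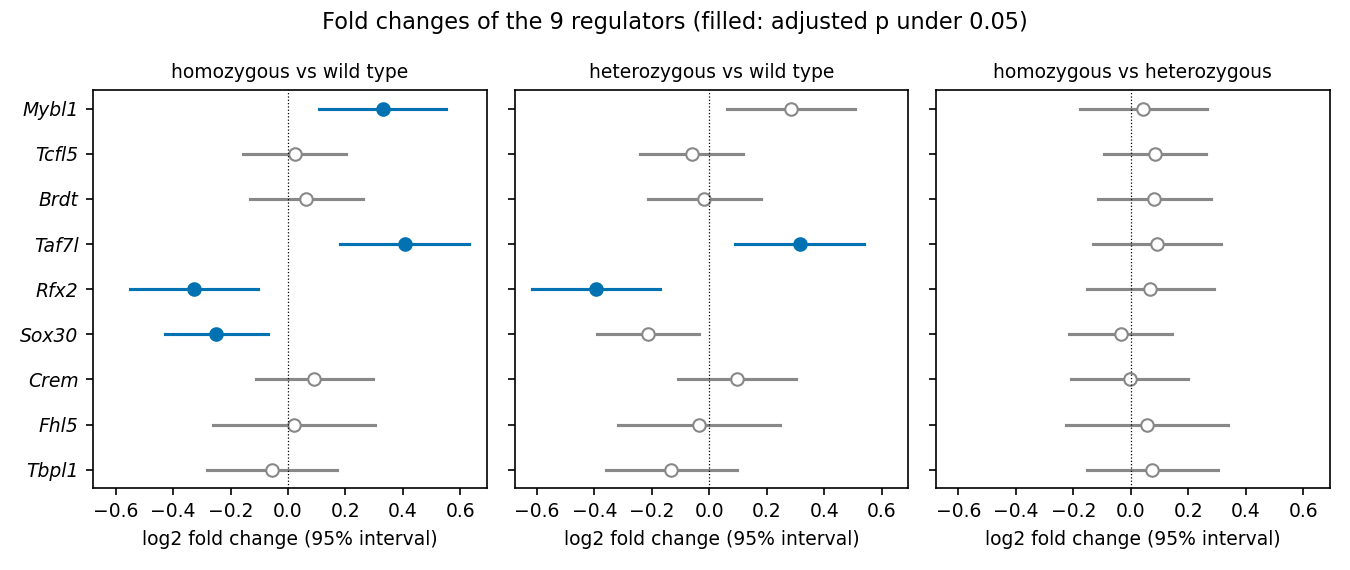
Log2 fold change of each regulator (point) with its 95% interval (line) in 3 comparisons of genotypes; filled blue points have an edgeR adjusted p under 0.05. Taf7l (0.41) and Mybl1 (0.33) lie above zero and Rfx2 (-0.33) and Sox30 (-0.25) below it in homozygous against wild type testis, and no interval of homozygous against heterozygous testis leaves zero.

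Levels between genes were compared per length. Per kilobase of exon in wild type testis, Fhl5 had the highest level, 184 ± 23.6 CPM per kb (SD, n = 3). Tcfl5 (109 ± 4.01) and Tbpl1 (109 ± 13.5) followed and overlapped each other. Rfx2 (59.5 ± 5.70), Brdt (44.0 ± 0.444) and Crem (39.0 ± 1.29) came next without overlapping. Mybl1 (24.3 ± 1.35) and Sox30 (22.7 ± 0.933) overlapped, and Taf7l (18.4 ± 0.917) was lowest. The counts cover introns, so a level per exon length favours genes with long introns. Per kilobase of gene body the order was Tcfl5 (16.7 CPM per kb), Tbpl1 (12.7), Fhl5 (5.01), Brdt (4.03), Mybl1 (4.00), Rfx2 (3.62), Crem (3.20), Taf7l (2.52) and Sox30 (1.81).

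Most of the regulators exceeded their relatives in the same testis. Per kilobase of exon in wild type, Mybl1 was 19.5-fold above Mybl2, the MYB gene of dividing cells, and Myb itself had 6 to 22 fragments per library. Rfx2 was 3.26-fold above Rfx4, the next RFX gene of the list, and 7.98-fold above Rfx1. Crem was 3.62-fold above Atf1 and 11.9-fold above Creb1, and Tbpl1 was 9.02-fold above Tbp, the canonical TATA-binding protein. Per kilobase of gene body, over which the counts were made, these folds were 20.8 for Mybl1 over Mybl2, 6.32 for Rfx2 over Rfx4, 2.28 over Rfx1, 3.25 for Crem over Atf1, 5.11 over Creb1 and 2.24 for Tbpl1 over Tbp. On that scale Rfx5 was the RFX gene nearest to Rfx2, which stood 1.77-fold above it. Tbpl2, the oocyte form, had 0 to 1 fragments per library. Sox30 was 1.77-fold above Sox6 and 2.06-fold above Sox5 per kilobase of exon, and 5.39-fold and 10.9-fold per kilobase of gene body. Fhl5 was an exception: Fhl4, another LIM-only gene of testis, stood at 814 ± 65.4 CPM per kb of exon.

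Which gene of a pair was higher depended on the length used for 2 pairs. Taf7l was 1.53-fold above its relative Taf7 per kilobase of exon, and stood at 0.237 of it per kilobase of gene body. Brdt was 1.09-fold above Brd2 per kilobase of exon, within the SD of Brd2 (40.3 ± 6.92 CPM per kb), and stood at 0.146 of it per kilobase of gene body.

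**Figure D3:**
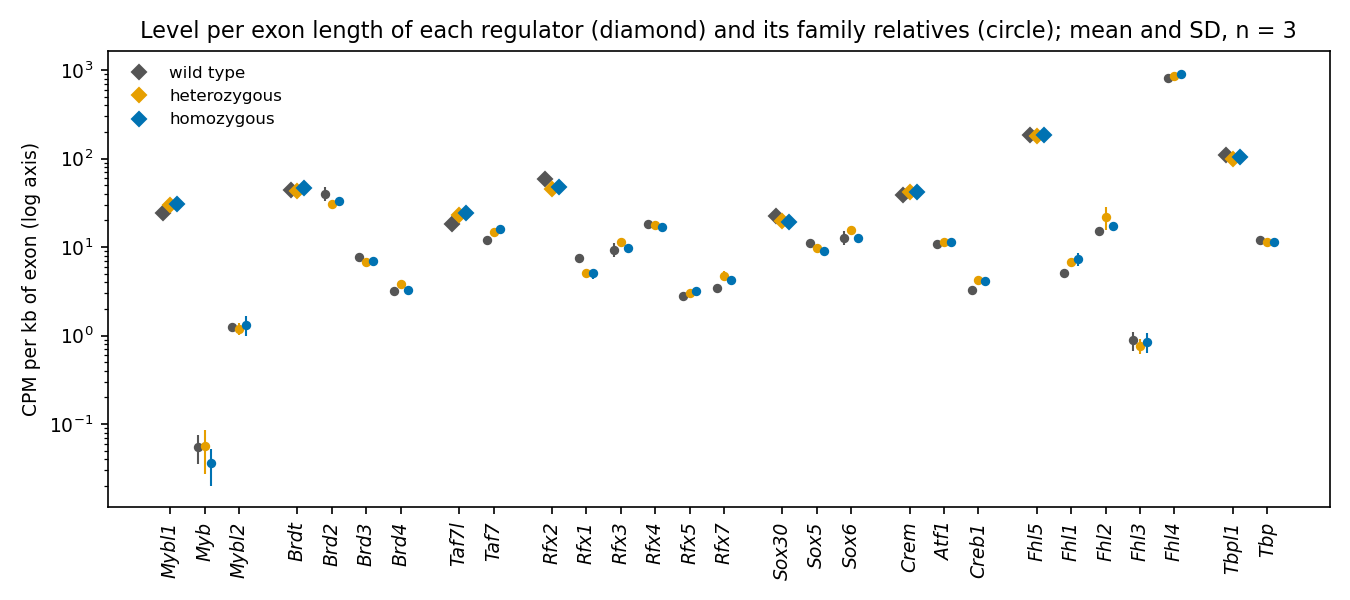
Level in CPM per kilobase of exon on a log axis, mean and SD of 3 libraries per genotype, for 8 of the regulators (diamonds) and their family relatives (circles). Fhl4 (814 CPM per kb in wild type) lies above Fhl5, Brd2 lies beside Brdt, and the other relatives drawn lie below their regulator.

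Of 20 tested relatives, 3 were higher and 2 lower in homozygous than in wild type testis, a share near the 20.8% called over all features. Rfx1, the founding RFX factor, fell by 0.57 on the log2 scale (edgeR adjusted p = 0.00659), and Taf7 was higher by 0.43 (adjusted p = 0.00728). Rfx2 and Rfx1 were both lower, and Taf7l and Taf7 both higher, pairs picked after the values were seen. Other RFX genes did not all follow Rfx2. In CPM per kb of exon, wild type and homozygous means were 2.78 and 3.22 for Rfx5 and 3.43 and 4.22 for Rfx7. They were 9.37 and 9.73 for Rfx3, and 18.2 and 17.1 for Rfx4. Fhl1 was higher by 0.52 and Creb1, a CREM relative found in most tissues, by 0.33 (adjusted p = 0.0123 and 0.0261). In heterozygous testis 5 were higher and 2 lower, beside 23.9% called over all features. The 4 with the lowest adjusted p were Rfx1 (-0.54), Rfx7 (0.47), Creb1 (0.37) and Taf7 (0.33). The median over the tested relatives was 0.04 in homozygous and 0.08 in heterozygous testis. None passed between homozygous and heterozygous testis by edgeR.

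Among 16 partners and other germ cell regulators, 3 were higher and 3 lower in homozygous than in wild type testis, beside 20.8% of all features called, with a median log2 fold change of -0.07. Kif17, a kinesin that controls where FHL5 lies in the spermatid, fell by 0.58 (126 against 189 CPM, edgeR adjusted p = 0.0164), while Fhl5 itself did not pass. Creb3l4, a CREB-like factor of spermatids, fell by 0.46 (adjusted p = 0.0110). Zfp541, a zinc finger regulator of late pachytene, fell by 0.44 (adjusted p = 0.0128). Brwd1, a bromodomain protein of spermatid gene expression, was higher by 0.38 (adjusted p = 0.00888). In heterozygous testis 4 were higher and 5 lower, beside 23.9% of all features called. Creb3l4 fell by 0.54, Zfp541 fell by 0.51 and Kif17 fell by 0.65, and Taf4b, a germ cell TFIID subunit, was higher by 0.36.

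Genes known to act downstream were taken as lists. Of 16 haploid genes, of the kind CREM drives, 8 were lower and 0 higher in homozygous testis, with a median log2 fold change of -0.66 beside -0.01 over all features, of which 11.1% were called lower. All 12 elongating spermatid markers, whose summed level is given above, are among these 16 genes, so the 2 lists are not separate measurements. Tssk6, a spermatid kinase, fell by 1.37, the protamine-cluster gene Prm3 fell by 0.89, Dbil5 fell by 0.88 and Oaz3 fell by 1.03 (edgeR adjusted p from 0.00323 to 0.0137). In heterozygous testis 9 were lower, with a median of -0.76, beside 12.9% of all features called lower. There Tssk6 fell by 1.45, Prm3 fell by 0.90, Dbil5 fell by 0.88 and Oaz3 fell by 1.16. Crem (0.09) and Fhl5 (0.02) did not pass in the same homozygous libraries. The summed level of the haploid list ran from 5767 to 13958 CPM among heterozygous libraries and from 9482 to 12442 among homozygous, below 16808 to 17436 in wild type.

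Of 17 piRNA pathway genes, several of them known MYBL1 targets, 4 were higher and 0 lower in homozygous testis, with a median of -0.06. Over all features 20.8% were called, 9.68% higher and 11.1% lower. The 4 genes were Asz1 (0.38), Tdrd12 (0.28), Tdrd1 (0.28) and Tdrd9 (0.25), with edgeR adjusted p from 0.0352 to 0.0406. In heterozygous testis Asz1 (0.53), Tdrd12 (0.29) and Tdrd9 (0.26) were higher and the RNA helicase gene Ddx39 fell by 0.25. Of 13 ciliary genes, a class RFX2 is known to drive, 3 were higher and 0 lower in homozygous testis, beside the same shares over all features. The 3 genes were Bbs2 (0.37), Bbs5 (0.37) and Lztfl1 (0.30), with edgeR adjusted p from 0.00788 to 0.0412 and a list median of 0.01. In heterozygous testis Bbs2 was higher by 0.31, and Dnali1, an axonemal dynein chain, fell by 0.47.

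Stage markers give the setting of these values. Over all features, 9.68% were called higher and 11.1% lower in homozygous testis, and 11.1% higher and 12.9% lower in heterozygous testis. Of 12 early meiotic prophase markers, 9 were higher in homozygous testis (median 0.53), among them Meiob (0.76), Sycp3 (0.81), Meioc (0.56) and Sycp2 (0.62). In heterozygous testis 8 were higher and 2 lower (median 0.47), with Meiob (0.79), Sycp3 (0.69), Sycp2 (0.59) and Hormad1 (0.50) first by adjusted p. Of 9 pachytene spermatocyte markers 0 were higher and 2 lower in homozygous testis: Ybx2, a germ cell RNA-binding protein, fell by 0.65 and the testis histone gene Hist1h1t (H1t) fell by 0.86. Both were also lower in heterozygous testis, by 0.72 and 0.84 on the log2 scale, with Ccna1 (-0.38). Of 8 round spermatid markers 1 was higher in homozygous testis, a share near the 9.68% over all features. It was Acrv1 of the acrosome (0.69, edgeR adjusted p = 0.0173). In heterozygous testis Acrv1 was higher by 0.57 and Tssk2 fell by 0.56. The part of a shift in stages in the changes of Mybl1, Taf7l, Rfx2 and Sox30 was not tested.

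**Figure D4:**
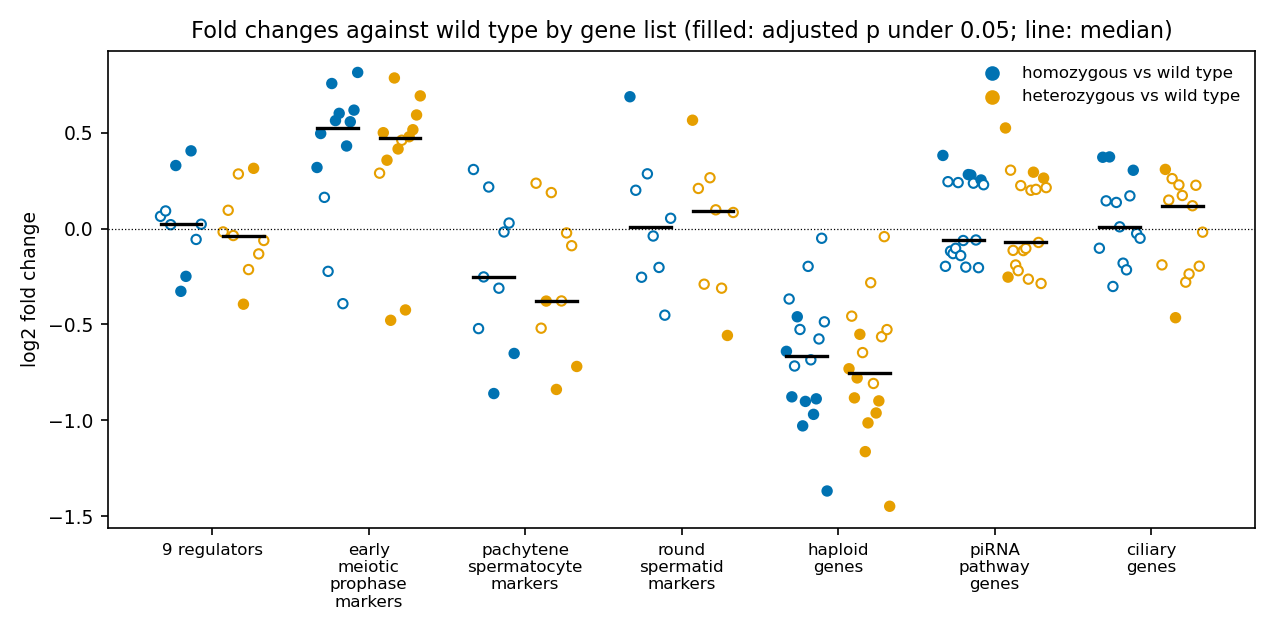
Log2 fold change against wild type of each gene (circle) in 7 lists, homozygous in blue and heterozygous in orange, filled where the edgeR adjusted p is under 0.05, with the list median as a line. The 9 regulators lie between -0.39 and 0.41, early meiotic markers mostly above zero (median 0.53 in homozygous testis) and haploid genes below it (median -0.66).

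The genes whose level followed each regulator over the 9 libraries were found by Pearson correlation of log2 CPM among 10937 genes, as a description. Taf7l was followed by Kbtbd8 (r = 0.996) and Fam3c (0.986). Mybl1 was followed by Sbno1 (0.989) and Ankhd1 (0.989), Rfx2 by Eif3b (0.996) and Slc6a16 (0.994), and Sox30 by Prss54 (0.975) and Oxtr (0.966). Fhl5 was followed by Galntl5 (0.987) and Dcun1d1 (0.981), Tbpl1 by Tdrd7 (0.970) and Sec23ip (0.967), and Brdt by Zfp933 (0.964) and Glrx3 (0.931). Crem was followed by Ccdc15 (0.949) and Grk4 (0.929), and Tcfl5 by Casp9 (0.881) and Adam30 (0.871). Among the members, Mybl1 and Taf7l were the most alike pair over the 9 libraries (r = 0.95), and Sox30 and Taf7l ran most opposite (-0.91). Once group means were removed, Mybl1 and Taf7l had an r of 0.86, as had Crem and Brdt, and Sox30 and Taf7l had -0.62. The 9 points share library depth and genotype groups. The highest r among 10937 genes over 9 libraries can be large through the search alone.

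Small RNA reads on these genes were few. The RNA had been treated with periodate and β-elimination, which spares RNAs with a 2′-O-methylated end such as piRNAs, and reads were counted on exons in the sense direction. Summed over 3 libraries, the genes held from 3 reads (Fhl5, homozygous) to 171 reads (Rfx2, heterozygous). Of the 9, 5 passed the filter on low counts, Tcfl5, Rfx2, Crem, Tbpl1 and Brdt, and edgeR called 0 of them. Of these 1, Rfx2, had an unadjusted p under 0.05, and DESeq2 called 0. Over all 3581 features 0.0279% were called, 1 gene, Unc119b, with 316 ± 43.1 CPM in heterozygous and 54.0 ± 11.7 in homozygous libraries (SD, n = 3, adjusted p = 0.00541). It is named because it was the only call, after its values were seen.

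Rfx2 had the most small RNA of the 9 per exon length, 9.86 reads per kb of exon on the CPM scale against 4.75 for Tbpl1, the next. It had 63, 48 and 60 reads in heterozygous and 30, 25 and 24 reads in homozygous libraries, that is 36.5, 47.5 and 48.0 against 19.9, 20.7 and 22.6 CPM. The groups did not overlap, as for 15.9% of features. The log2 fold change was -1.05 (SE 0.20, 95% interval -1.51 to -0.60, edgeR unadjusted p = 0.000562), the fourth lowest p of 3581 features, and it did not pass after adjustment (adjusted p = 0.386). Without heterozygous library 1 it passed (adjusted p = 0.000519), in a fit that called 617 of 3835 features. Over the other 11 alternatives the adjusted p ran from 0.0895 to 0.999. Long RNA of Rfx2 was 152 CPM in heterozygous and 159.0 CPM in homozygous testis, a log2 fold change of 0.07; the difference between the small and long RNA changes was not tested.

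The other tested genes showed no call. Crem had 48, 32 and 34 reads against 40, 29 and 23, groups that did not overlap in CPM (28.9 against 24.1, log2 fold change -0.25, edgeR adjusted p = 0.728). Tcfl5 had 67 reads against 39 (-0.71, 95% interval -1.44 to 0.02, adjusted p = 0.557). Tbpl1 had 69 against 53 (-0.29, adjusted p = 0.741) and Brdt 35 against 41 (0.33, adjusted p = 0.819). Sox30 was not tested in the main fit and had 6, 1 and 2 reads in heterozygous and 9, 8 and 6 in homozygous libraries. Without the filter its log2 fold change was 1.46 (adjusted p = 0.767). Mybl1 had 24 reads against 32 and Taf7l 13 against 9.

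**Figure D5:**
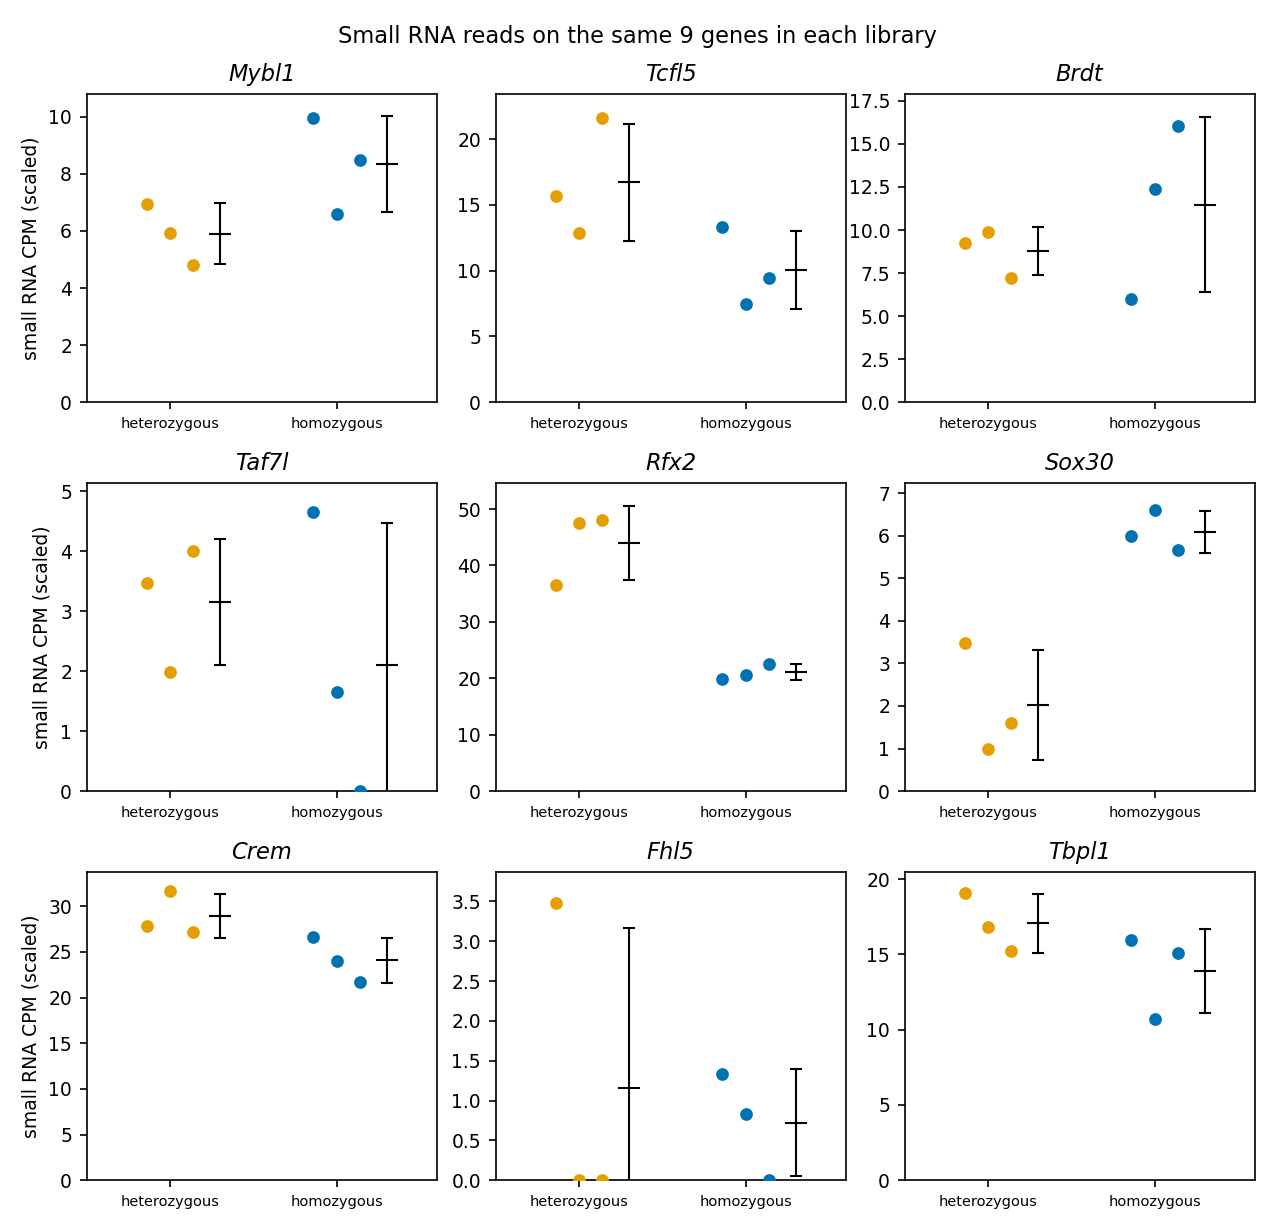
Small RNA CPM on each regulator in each of the 6 libraries (dots), by genotype, with mean and SD (black, n = 3; lower bars end at the axis where the SD exceeds the mean). Rfx2 lies at 36.5 to 48.0 CPM in heterozygous and 19.9 to 22.6 CPM in homozygous libraries; the other genes lie below 32 CPM.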

How the data were processed

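Per the file headers, the authors counted with featureCounts: version 1.6.2 for RNA-seq, as properly paired fragments over whole gene bodies per strand on GENCODE M12 genes and piRNA precursors, and version 1.6.1 for small RNA, over exons. The deposited values are raw counts, not normalized. Introns enter each RNA-seq value, and fragments in overlapping features of a strand are left out. The submitters' processing notes name cutadapt 1.18, HISAT2 2.1.0, Bowtie2 2.2.5 and SAMtools 1.9, with mm10 and mm9, without roles. The kit strand was used; the opposite strand held 8.81 to 10.7% of its total.

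Counts were filtered with filterByExpr, scaled by TMM and tested with the edgeR 4.0.16 quasi-likelihood test (R 4.3.3), all 9 RNA-seq libraries in 1 fit and all 6 small RNA libraries in another, with Benjamini-Hochberg adjustment over all features and a threshold of 0.05. DESeq2 1.42.0 served as an alternative and is named where used. The scripts were tested on simulated data. The SE is the log2 fold change over the square root of F. Symbols came from a name table (49326 of 49585 IDs); H1t and Ddx39a appear under the symbols Hist1h1t and Ddx39. The 9 members were named throughout, up to 4 called genes of each other list per comparison, relatives where levels are compared, and the 2 most alike genes per member (mean of at least 5 CPM). Members and lists were chosen with earlier results of these data known. Alternatives were scaling, filters, strands, samples in the fit, DESeq2, each library left out, and, for small RNA, the replicate block.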

Additional observations from a re-analysis of the deposited data

Results flagged for a closer look

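The comparisons above use reads on the strand opposite Taf7l only in the alternative with both strands summed. These reads lay above all wild type libraries in every library of both mutant genotypes. Taf7l was picked from the 9 members for this separation, after the values were seen. The difference was not tested, and the share of all features with such a separation was not computed. The reads came to 7, 9 and 10 fragments in wild type, 38, 17 and 19 in heterozygous and 24, 19 and 19 in homozygous libraries. Their mean was 0.334 ± 0.119 CPM (SD, n = 3) in wild type and 0.748 ± 0.0939 in homozygous testis. They amounted to 0.498 to 1.62% of the Taf7l counts on the kit strand.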

How the results depend on the processing

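The count of 0 members called between homozygous and heterozygous testis held in all 16 alternatives. The count of 4 in homozygous against wild type testis became 2 without scaling and 2 with both strands summed. It became 3, losing Sox30, with RLE scaling, no low-count filter, a mean of at least 1 CPM or only the groups compared. It ran from 0 to 2 with 1 wild type or homozygous library left out. With 1 heterozygous library left out, which is outside that comparison, it was 3 or 4. The count of 2 in heterozygous against wild type testis became 1 with only the groups compared in the fit and 3, with Mybl1, with DESeq2, without scaling and at a mean of at least 1 CPM, and ran from 0 to 3 with 1 library left out. In small RNA the count of 0 ran from 0 to 1. Over all features, calls ran from 4 to 18 (6 in the main analysis) between homozygous and heterozygous, from 1805 to 4974 (4319) in homozygous against wild type and from 2432 to 5433 (4977) in heterozygous against wild type testis. In small RNA they ran from 0 to 617 (1), with 43 without a filter on low counts and 617 without heterozygous library 1. With the replicate block the small RNA log2 fold change of Rfx2 was -1.05 (edgeR adjusted p = 0.680) and 0 members were called, as without it. Deviations of same-numbered small RNA libraries from their group means had r of -0.154, 0.00255 and -0.0875. With 3 libraries per group this cannot show whether the numbers mark a pairing, and the labels do not say.

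The values that changed sign were all small and uncalled. Without scaling, Mybl1 was -0.0056 between homozygous and heterozygous testis, Tbpl1 was 9.3e-05 in homozygous against wild type, and Tcfl5, Fhl5 and Brdt were 0.033, 0.049 and 0.078 in heterozygous against wild type. Crem between homozygous and heterozygous testis was 0.00499 with DESeq2, 0.0031 with RLE scaling and 0.00060 with both strands summed. With 1 library left out, homozygous against heterozygous values ran from -0.036 to 0.14 for Mybl1, -0.070 to 0.075 for Crem, -0.065 to 0.14 for Fhl5, -0.077 to 0.00034 for Sox30 and -0.0080 to 0.15 for Taf7l. Homozygous against wild type values ran from -0.082 to 0.074 for Fhl5 and -0.11 to 0.052 for Tbpl1, and heterozygous against wild type values from -0.13 to 0.085 for Fhl5 and -0.10 to 0.028 for Brdt. The cause was not tested.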
